A study of Mus musculus with 18 samples.

Results

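Slc14a1 encodes the urea transporter UT-B, and its transcript was among the least abundant of those tested in vehicle-treated brown preadipocytes and among the most abundant after 24 h with FGF6. It is 1 gene of the 48023 in the count table, found there by its Ensembl identifier (ENSMUSG00000059336). It was chosen by its log2 fold changes of FGF6 against vehicle, which were among the highest in these data. The size of that rise is therefore given as a description without a test.

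The cells were an immortalized line of mouse brown preadipocytes, undifferentiated precursors of brown fat cells that carry the SV40 T antigen, grown in high-glucose medium with serum. They received vehicle or FGF6, a secreted fibroblast growth factor, at 200 ng/ml for 4, 8, or 24 h, and 3 libraries were sequenced for each of the 6 groups, 18 in all. All groups are this line without a genetic change between them, so one cell line stands for the cell type. The study sequenced these cells to look for pathways through which the growth factor could act on Ucp1, the uncoupling protein of brown fat.

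UT-B is a membrane channel that lets urea move down its concentration gradient. It is best known from the red blood cell, where it carries the Kidd blood group antigens, and from the vessels of the kidney medulla, where it helps to keep urea in the tissue. Urea itself is made by arginase, which splits arginine into urea and ornithine, so the supply of arginine, the aquaporins that carry water or small solutes, and the genes of the response to osmotic stress are its closest neighbours in function.

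In GRCm38 with the GENCODE M21 annotation, Slc14a1 lies on the minus strand of chromosome 18 from 78100091 to 78142119. It is a protein-coding gene with 3 annotated transcripts and 3995 exonic bases in 11 merged exons. No other gene in this annotation shares bases with it. The release used for the counts is not given, so an overlap with another gene in that release was not checked. Its nearest annotated relative, the renal urea transporter gene Slc14a2, lies 4028 bp upstream of it on the same strand.

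The libraries held between 24327816 and 33471980 counts assigned to genes. Levels are given in CPM (counts per 1000000 counts of the genes tested), with library sizes scaled by TMM factors, which lay between 0.951 and 1.05. A count of 3, used as the floor of detection, corresponded to between 0.0905 and 0.126 CPM, and this floor covers counting error only. No pair of libraries within a group agreed within sampling noise, so each was counted as 1 sample. The labels do not say that the libraries came from separate cultures, so p-values measure only the spread between these samples.

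Of 8 stromal and preadipocyte markers, 7 were detected, with a summed level of 2223 to 2377 CPM in vehicle libraries and 1609 to 2384 CPM in FGF6 libraries. Dlk1 was at 0 counts in all 18. The largest single part in every group was Itgb1, an integrin subunit that many cell types make. Its means were 1100, 1040, and 988 CPM with vehicle and 1402, 1276, and 1234 CPM with FGF6. At 24 h more specific markers were lower with FGF6 by edgeR. Pdgfra had a log2 fold change of -1.62, Pdgfrb -2.37, and Ly6a -2.91, while Cd34 was higher (1.38). They moved with treatment at the same time as Slc14a1, and their part in its rise was not tested. The erythroid list, which stands for the cells best known for UT-B, had no gene that passed the filter on low counts, and its 8 genes summed to at most 0.511 CPM in any library. The beta-globin genes Hbb-bs and Hbb-bt and the blood group gene Kel were at 0 counts in all 18 libraries. The alpha-globin gene Hba-a1 was at 0 in all vehicle libraries but reached up to 12 counts (a mean of 0.351 CPM) with FGF6 at 24 h, without overlap. The urothelial list, for another cell type that makes UT-B, reached at most 0.853 CPM over 5 genes.

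In vehicle-treated cells, Slc14a1 had 38, 29, and 32 counts at 4 h, 34, 30, and 22 at 8 h, and 48, 33, and 26 at 24 h. These counts were above the floor in every vehicle library, and their spread was of the size that counting alone gives at 4 and 8 h. The coefficient of variation over the 3 libraries was 15.8% at 4 h, where counting error alone gives 17.4%, and 17.5% at 8 h, where it gives 18.7%. At 24 h it was 29.5% against 16.7%, and the first library was the highest.

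In FGF6-treated cells, the counts were 1470, 1867, and 1505 at 4 h, 3529, 3814, and 3198 at 8 h, and 8235, 8403, and 8416 at 24 h. No FGF6 library came near the range of the vehicle libraries, and the 3 FGF6 groups did not overlap one another. Counting error alone gives between 1.09% and 2.49% in these groups, and the measured coefficient of variation was 6.07% at 4 h, 7.02% at 8 h, and 1.64% at 24 h.

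On the CPM scale, the 3 libraries at 4 h had 1.23, 0.896, and 1.07 CPM with vehicle and 54.4, 59.5, and 61.1 CPM with FGF6. The group means were 1.07 ± 0.168 CPM (SD, n = 3) and 58.3 ± 3.54 CPM (SD, n = 3). The ratio of these means was 54.7, and the fitted log2 fold change was 5.77 (standard error 0.10). The lowest FGF6 library was 54.4 CPM and the highest vehicle library 1.23 CPM.

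At 8 h the vehicle libraries had 1.07, 0.954, and 0.753 CPM and the FGF6 libraries 114.9, 128.2, and 131.4 CPM. The means were 0.927 ± 0.162 CPM (SD, n = 3) and 124.8 ± 8.76 CPM (SD, n = 3), a ratio of 134.7 and a log2 fold change of 7.06 (standard error 0.10). The vehicle groups at 4 and 8 h overlapped while the FGF6 groups were apart, so the larger ratio came with a higher FGF6 level.

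At 24 h the vehicle libraries had 1.68, 0.995, and 1.09 CPM and the FGF6 libraries 300.4, 300.2, and 308.9 CPM. The means were 1.26 ± 0.371 CPM (SD, n = 3) and 303.1 ± 4.97 CPM (SD, n = 3), a ratio of 241.2 and a log2 fold change of 7.91 (standard error 0.09). Without the first vehicle library, which had the highest vehicle level of all, the log2 fold change was 8.23. RNA of whole cultures was measured, so a higher level in each cell and a larger share of cells with the transcript cannot be told apart.

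**Figure D1:**
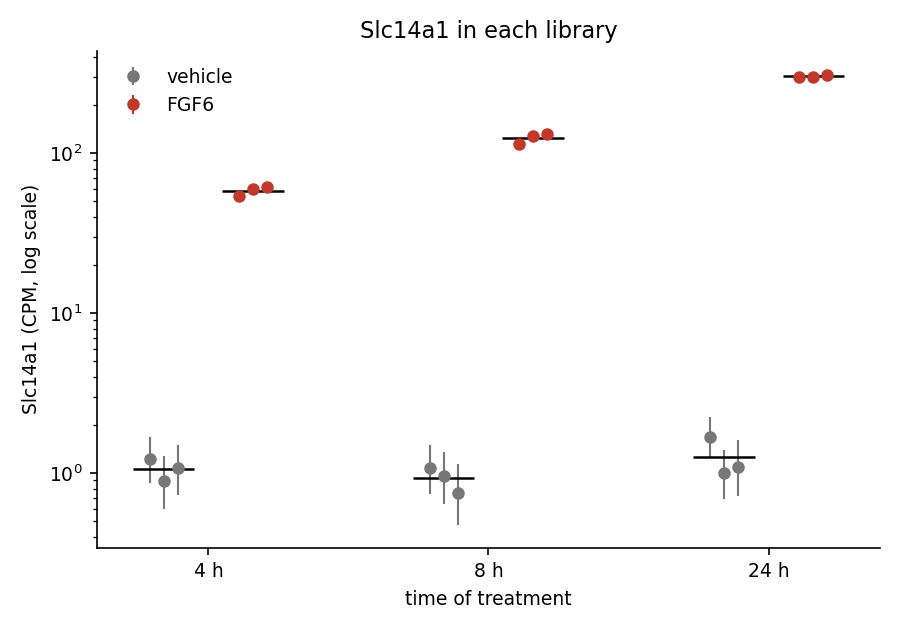
Slc14a1 in each of the 18 libraries, in CPM on a log axis, by time of treatment. Points are libraries (grey, vehicle; red, FGF6), vertical lines their 95% Poisson intervals, which cover counting error only, and black lines group means; the FGF6 groups sit at 58.3, 124.8, and 303.1 CPM and the vehicle groups between 0.927 and 1.26 CPM.

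The order of the 6 groups was vehicle at 8 h, vehicle at 4 h, vehicle at 24 h, then FGF6 at 4, 8, and 24 h. The neighbours in this order among the vehicle groups did not differ beyond their spread, while all later neighbours were separated. Within FGF6-treated cells the level went up 2.14-fold from 4 to 8 h and 2.43-fold from 8 to 24 h, and 5.20-fold from 4 to 24 h. On a linear scale, the difference from vehicle was 57.3 CPM at 4 h, 123.9 CPM at 8 h, and 301.9 CPM at 24 h. The first 4 h thus accounted for 19.0% of the difference seen at 24 h, and the first 8 h for 41.0%.

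Time in vehicle alone was tested. The choice of the gene did not use the order of the vehicle groups. It did use their levels, as the base of the fold changes, so these tests are not independent of that choice. From 4 to 8 h the log2 change was -0.19 (standard error 0.22), with an edgeR adjusted p of 0.541 and an exact two-sided permutation p of 0.5. From 8 to 24 h it was 0.43 (standard error 0.22), with an edgeR adjusted p of 0.115 and an exact permutation p of 0.2. From 4 to 24 h it was 0.24 (standard error 0.21), with an edgeR adjusted p of 0.354 and an exact permutation p of 0.6.

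With 3 libraries against 3 the exact permutation test cannot go below 0.1. Over all 15071 genes tested, edgeR called 43% different in vehicle at 8 h against 4 h. The share was 49.2% at 24 h against 8 h and 60.8% at 24 h against 4 h, and Slc14a1 was in none of these sets. The 3 vehicle groups overlapped in each comparison. The change from 8 to 24 h was past the threshold without the second vehicle library at 24 h (log2 change 0.60, edgeR adjusted p = 0.0474), and at 0.15 without the first (edgeR adjusted p = 0.638). The change from 4 to 24 h turned to -0.0522 without that first library (edgeR adjusted p = 0.865).

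Divided by exonic length, which allows levels of different genes to be set side by side, Slc14a1 was at 0.267 CPM per kilobase in vehicle at 4 h, 0.232 at 8 h, and 0.315 at 24 h. Only 12.2%, 11.1%, and 14.2% of the 15019 genes with an annotated length were lower. With FGF6 it was at 14.6 CPM per kilobase at 4 h, 31.2 at 8 h, and 75.9 at 24 h, above 73.5%, 88.0%, and 96.1% of these genes. By this level it stood at rank 3980, 1801, and 579 with FGF6, after rank 13194, 13348, and 12893 with vehicle.

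Ranked by fitted log2 fold change, Slc14a1 was the gene at position 4 of 15071 at 4 h, 3 at 8 h, and 5 at 24 h. FGF6 changed a large share of all genes: edgeR called 28.6% of genes higher and 34.2% lower at 4 h, 32.4% and 38.4% at 8 h, and 35.9% and 37.9% at 24 h. The median log2 fold change of all genes was -0.05 at 4 h, -0.05 at 8 h, and -0.02 at 24 h. Of the genes ranked above it, all but Areg had at most 3 counts in every vehicle library, so their fitted fold changes depend on the prior count and fix no order.

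At 4 h these were Klk9, with 0 counts in vehicle and 7 to 16 with FGF6, and Mat2a, with at most 1 and 28 to 50. Mat2a encodes an S-adenosylmethionine synthetase that cells generally express, so its counts may not reflect its level, which was not tested. At 8 h it was Kcnj12, with 0 and 18 to 41. At 24 h they were Adamts8, with 0 and 35 to 51, Kcnj12, with 0 and 24 to 45, and 4933438A12Rik, with 0 and 23 to 32. Slc14a1, by comparison, had at least 1470 in every FGF6 library.

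Among genes above the floor in vehicle, meaning more than 3 counts in at least 1 vehicle library of that time, Slc14a1 ranked 2 at all 3 time points, of 14995 genes at 4 h, 14961 at 8 h, and 14947 at 24 h. The gene ahead of it was Areg, which encodes amphiregulin, a ligand of the EGF receptor. Areg had mean levels of 36.0 CPM with FGF6 against 0.398 CPM with vehicle at 4 h, 37.4 against 0.120 CPM at 8 h, and 85.9 against 0.296 CPM at 24 h. Its log2 fold changes were 6.48, 8.24, and 8.12, of which that at 8 h rests on a vehicle level within the range of the floor. By the difference in CPM in place of the ratio, Slc14a1 stood at rank 565 at 4 h, 262 at 8 h, and 86 at 24 h.

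**Figure D2:**
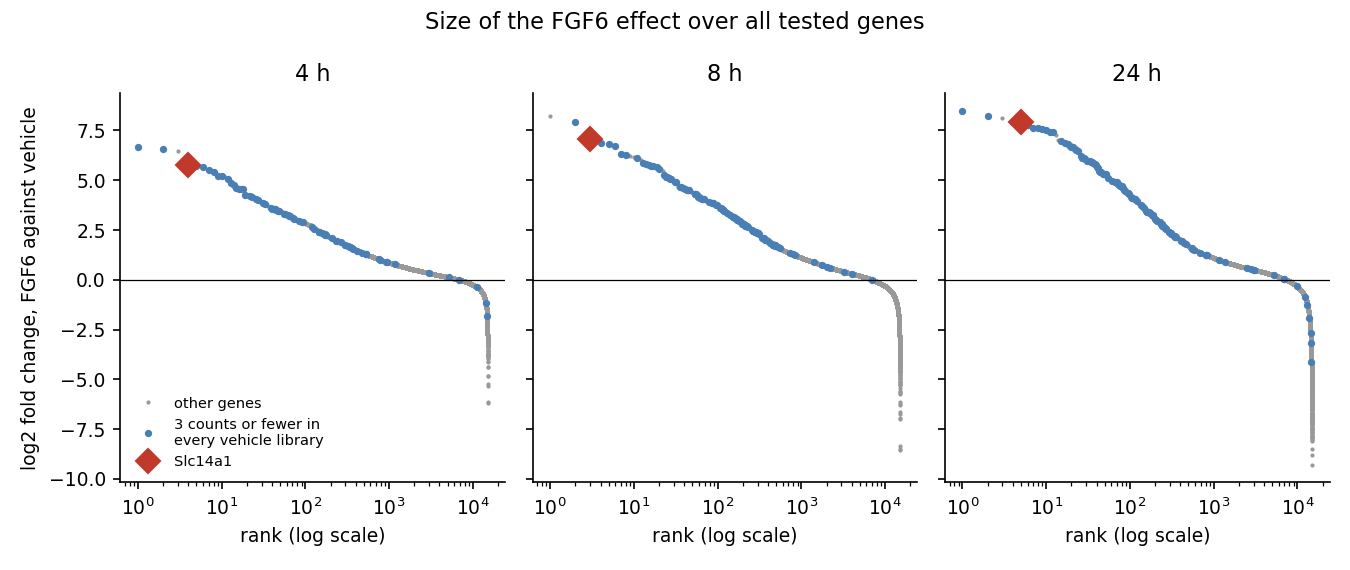
Fitted log2 fold change of FGF6 against vehicle for all 15071 genes tested, ordered from the highest (rank on a log axis), at 4, 8, and 24 h. Blue points are genes with at most 3 counts in every vehicle library, whose fitted values fix no order; Slc14a1 (red) sits at rank 4, 3, and 5.

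The fold changes of other genes with a similar level in vehicle are given as a description. Genes whose mean vehicle level lay within 2-fold of that of Slc14a1 numbered 1916 at 4 h, 1899 at 8 h, and 1724 at 24 h. Their median log2 fold change with FGF6 was -0.22 at 4 h, -0.26 at 8 h, and -0.41 at 24 h, and their 95th percentile was 1.05, 1.47, and 1.56. The highest of them were Serpinb2 at 4 h (5.16), Tmem200a at 8 h (6.21), and Tcim at 24 h (6.04). None was above Slc14a1, which had been chosen for one of the largest rises.

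Solute carriers, the large superfamily of membrane transporters to which Slc14a1 belongs, were listed by symbol after values had been seen. Of 206 others that passed the filter, edgeR called 67 higher and 82 lower at 4 h, 69 and 88 at 8 h, and 67 and 96 at 24 h. As shares these were 32.5% and 39.8%, 33.5% and 42.7%, and 32.5% and 46.6%, beside the shares of all genes given above. Slc14a1, chosen for its rise, had the highest log2 fold change of the family at each time. Next to it among those above the floor in vehicle came Slc1a7, a glutamate transporter, with 2.66 at 4 h, and Slc16a11, a monocarboxylate transporter family member, with 4.04 at 8 h. At 24 h Slc1a7 again had the next fitted value, but its mean level in vehicle was 0.0682 CPM, under the floor, so that its size is uncertain. After it came Slc22a23 with 3.72, at 25.4 CPM with FGF6 and 1.92 CPM with vehicle.

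The other member of the urea transporter family, Slc14a2, had between 0 and 9 counts in the 18 libraries and did not pass the filter. Its counts at 24 h were 1, 6, and 4 with vehicle and 8, 0, and 4 with FGF6, which overlap. A difference was not detectable at this depth.

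A list of 40 other genes that handle urea, arginine, water, or organic osmolytes was set beside it. All 40 were in the table and 26 passed the filter. Of these 26, edgeR called 8 higher and 8 lower at 4 h, 10 and 5 at 8 h, and 11 and 11 at 24 h (adjusted p under 0.05 over all genes). As shares, 30.8% were higher and 30.8% lower at 4 h, 38.5% and 19.2% at 8 h, and 42.3% and 42.3% at 24 h, against 28.6% and 34.2%, 32.4% and 38.4%, and 35.9% and 37.9% of all genes. Aqp8 passed the filter only through FGF6 libraries, and without it 10 of 25 were higher at 24 h. The median log2 fold change of the list was -0.12 at 4 h, 0.05 at 8 h, and 0.14 at 24 h. No member had a log2 fold change as high as that of Slc14a1, which was chosen for its rise. The values that follow are log2 fold changes of FGF6 against vehicle from edgeR, and all named as higher or lower had an adjusted p under 0.05.

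Of the urea cycle and arginase genes, Arg2, the mitochondrial arginase that makes urea outside the liver, was higher at all times, with 0.71 at 4 h, 0.45 at 8 h, and 1.71 at 24 h. Its level at 24 h was 9.09 CPM with FGF6 against 2.79 CPM with vehicle, far below that of Slc14a1. At 8 h its call did not hold without the second vehicle library (0.33, edgeR adjusted p = 0.0831). The liver arginase Arg1 and the liver urea cycle enzymes Cps1 and Otc had at most 3 counts in any library.

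Slc25a13, the mitochondrial aspartate and glutamate carrier citrin, was also higher throughout, with 0.63, 0.62, and 0.99. The argininosuccinate lyase gene Asl was higher at 24 h (0.46), while Ass1, the argininosuccinate synthase, and Slc25a15, the mitochondrial ornithine carrier, were lower (-0.35 and -0.31). The earlier values of Ass1 (-0.17 at 4 h and 0.19 at 8 h) and Asl (-0.15 at 4 h) passed the test but lost it in DESeq2, with library sizes alone, or without single libraries. In the fits that left out 1 library, Ass1 lay between -0.20 and -0.07 at 4 h and between 0.12 and 0.27 at 8 h, and Asl between -0.17 and -0.11 at 4 h.

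Among other users of arginine or ornithine, Odc1, which turns ornithine into the polyamine putrescine, was higher at every time. Its level was 36.2 CPM with vehicle and 182.2 CPM with FGF6 at 24 h, and its log2 fold changes were 1.54, 1.95, and 2.33. Oat, which moves ornithine towards glutamate and proline, was lower, with -0.66, -0.83, and -0.49. Nos2, the inducible nitric oxide synthase, was also lower at every time, with -1.71, -4.37, and -3.82.

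Of the 4 cationic amino acid transporters, which carry arginine across cell membranes, 3 were higher at 4 h, 2 at 8 h, and 2 at 24 h. At 24 h the other 2 were lower. Of all genes, 28.6%, 32.4%, and 35.9% were higher at these times, and 37.9% were lower at 24 h. Slc7a1, the most abundant of them, had 0.71 at 4 h, 1.07 at 8 h, and 0.24 at 24 h. Slc7a2 had 2.05 and 1.88 and then turned to -1.04, with a level under FGF6 of 50.9 CPM at 4 h and 2.94 CPM at 24 h. Slc7a3 was higher at 4 h (0.43) and 24 h (0.89) and had -0.04 at 8 h. Slc7a7 was lower at 24 h (-1.19), and its values of -0.40 and -0.25 at the earlier times did not pass the test.

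Of 11 aquaporins, 6 passed the filter. Of these 6, edgeR called 0 higher and 1 lower at 4 h, 0 and 3 at 8 h, and 1 and 3 at 24 h. These counts stand beside 28.6% and 34.2%, 32.4% and 38.4%, and 35.9% and 37.9% of all genes. Aqp5, a water channel best known from glands, was lower at every time, with -1.64, -1.91, and -1.66. Aqp7, which carries glycerol in fat cells, was lower at 8 h (-2.16) and 24 h (-3.01). Aqp1 was lower at 24 h (-0.40), but not without the second FGF6 library (-0.21, edgeR adjusted p = 0.0523), and Aqp3 was lower at 8 h (-1.04), but not without the second FGF6 library of that time (-0.79, edgeR adjusted p = 0.0898).

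Aqp8 was called higher, with 18, 23, and 32 counts in the FGF6 libraries at 24 h against 1, 3, and 3 with vehicle. The groups did not overlap, and the gene passed the filter only through these FGF6 libraries. Aqp4, the water channel of astrocytes, was at 0 counts in all 18 libraries.

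Of the osmotic stress genes, Sgk1, a kinase that regulates ion transport, was higher at all times, with 2.42, 3.01, and 2.31. Hspa4l, a heat shock protein induced by hypertonic stress, went from -0.20 at 4 h to 0.67 at 8 h and 1.77 at 24 h, and Slc5a3, the myo-inositol transporter, from -0.17 to 0.38 and 0.83. Nfat5, the transcription factor of the response to high salt, went the other way, with 0.20 at 4 h and -0.27 at 24 h. Slc6a6, the taurine transporter, was lower at 4 h (-0.23), higher at 8 h (0.19), and lower at 24 h (-0.22). Akr1b3, the aldose reductase that makes sorbitol, was higher at 24 h by 0.18, and Slc6a12, the betaine transporter, had at most 3 counts.

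The changes of the tested osmotic stress genes were of both signs, and those of Sgk1 were the largest at each time. The value of Nfat5 at 4 h was not past the threshold with library sizes alone (0.10, edgeR adjusted p = 0.0795), nor was that of Slc5a3 at 4 h without the first FGF6 library (-0.09, edgeR adjusted p = 0.0820).

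**Figure D3:**
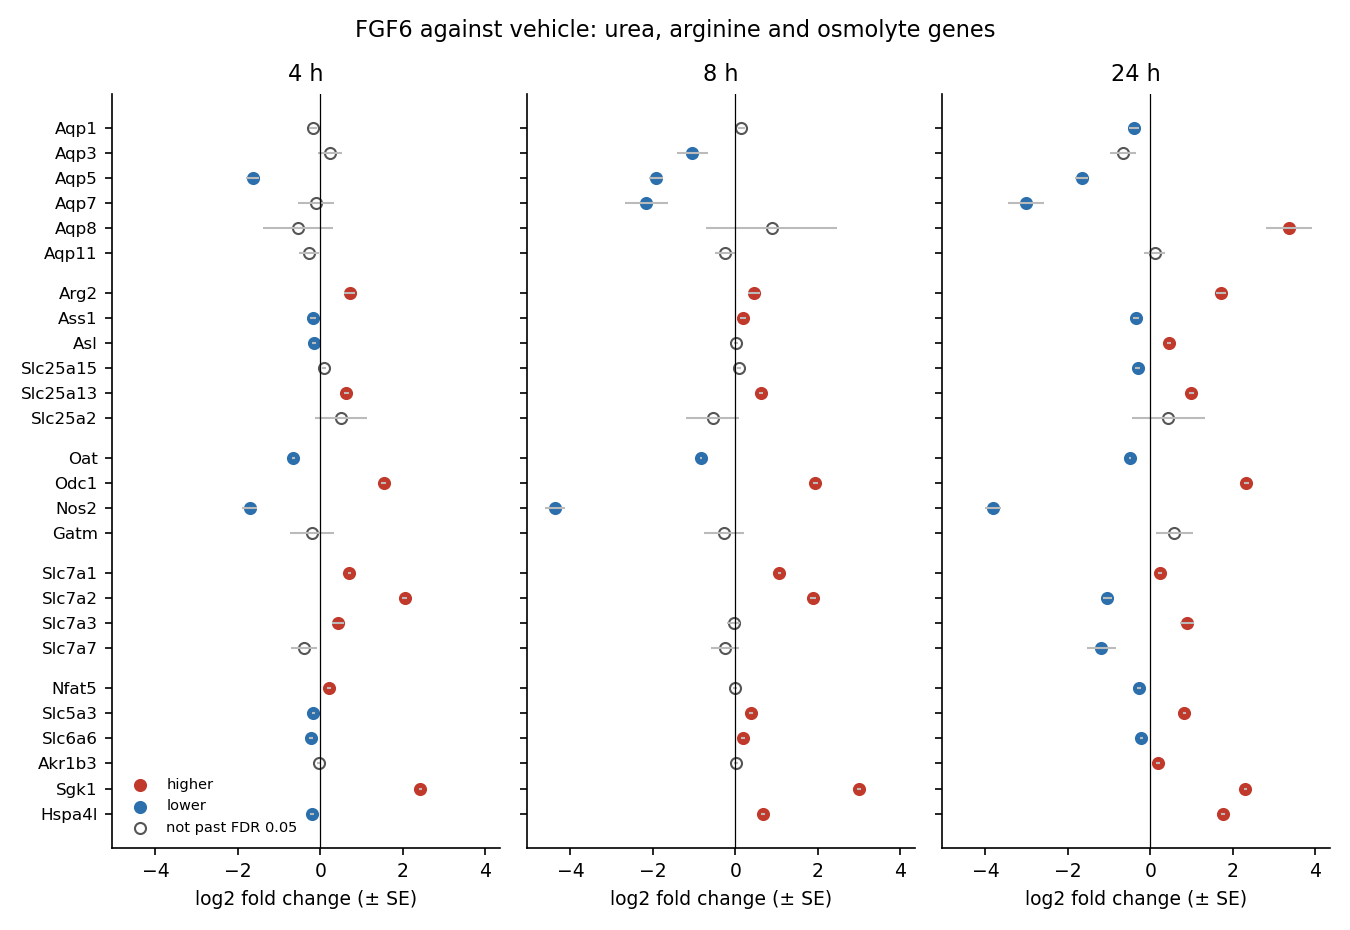
Log2 fold change of FGF6 against vehicle for the 26 tested genes that handle urea, arginine, water, or osmolytes, by role from top to bottom, at 4, 8, and 24 h. Red and blue points had an edgeR adjusted p under 0.05 and open points did not, grey bars are standard errors, and Aqp8 had at most 3 counts in every vehicle library at 8 and 24 h; all values lie below the 5.77, 7.06, and 7.91 of Slc14a1, which is not drawn.

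The effect of FGF6 at 24 h was then compared with that at 4 h for the 26 genes and for the 8 tested genes in the neighbourhood described next, a comparison chosen after values had been seen. edgeR called a difference for 53.5% of all genes, and for 15 of the 26 and 6 of the 8. The effect changed its sign between these times for 7 of the 34, among them Slc7a2, Hspa4l, Slc5a3, and Nfat5, and for 6.73% of all genes by the same rule. Of the 7, only Slc7a2 and Hspa4l kept their call at 4 h in every alternative fit and whichever library was left out.

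Within 1 Mb of Slc14a1, by distance between gene starts, the annotation held 24 genes, 21 of them in the table, and 8 passed the filter. edgeR called 3 of the 8 higher and 3 lower at 4 h, 3 and 2 at 8 h, and 5 and 2 at 24 h. These shares, 37.5% and 37.5%, 37.5% and 25%, and 62.5% and 25%, stand beside 28.6% and 34.2%, 32.4% and 38.4%, and 35.9% and 37.9% of all genes. One of the genes counted as higher at each time is Siglec15, which passed the filter only through FGF6 libraries, and without it 2, 2, and 4 of 7 were higher. Siglec15 is the next gene downstream, a sialic acid-binding lectin of myeloid cells and osteoclasts, 84.7 kb away. It had 0 counts in all 9 vehicle libraries, and 9, 5, and 2 counts with FGF6 at 4 h, 11, 6, and 4 at 8 h, and 14, 24, and 29 at 24 h.

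The groups of Siglec15 did not overlap at any time, but the third FGF6 library at 4 h, with 2 counts, was under the floor. The separation at 4 h is therefore not firm. The level of Siglec15 at 24 h was at least 7.56-fold higher with FGF6, taken against 3 counts per library. Its level stayed low throughout, at 0.811 CPM with FGF6 at 24 h, against 303.1 CPM for Slc14a1.

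Pstpip2, an adaptor protein that binds membranes and the actin skeleton, lies 352.2 kb away and was higher at all times, with log2 fold changes of 1.93, 1.69, and 1.15. Its effect was smaller at 24 h than at 4 h by -0.79 on the log2 scale (edgeR adjusted p = 0.0204), while the log2 fold changes of Slc14a1 went up with time. 8030462N17Rik rose by 0.27, 0.49, and 0.67. Setbp1, which lies upstream beyond Slc14a2 and encodes a SET-binding protein, was lower, with -0.85, -0.72, and -2.23.

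Of the remaining neighbours, 4930465K10Rik passed the test at no time, with 0.88 at 24 h (edgeR adjusted p = 0.0942). The autophagy gene Epg5 had -0.34 at 24 h. Atp5a1, a subunit of the mitochondrial ATP synthase, had -0.08 at 4 h and 0.24 at 24 h, and Haus1, a subunit of the augmin complex of the spindle, had -0.20, -0.16, and 0.20. The calls of Atp5a1 at 4 h and of Haus1 at 4 and 8 h were lost in several of the alternative fits and without single libraries. In the fits without 1 library the values lay between -0.10 and -0.04 for Atp5a1 and between -0.26 and -0.11 for Haus1.

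**Figure D4:**
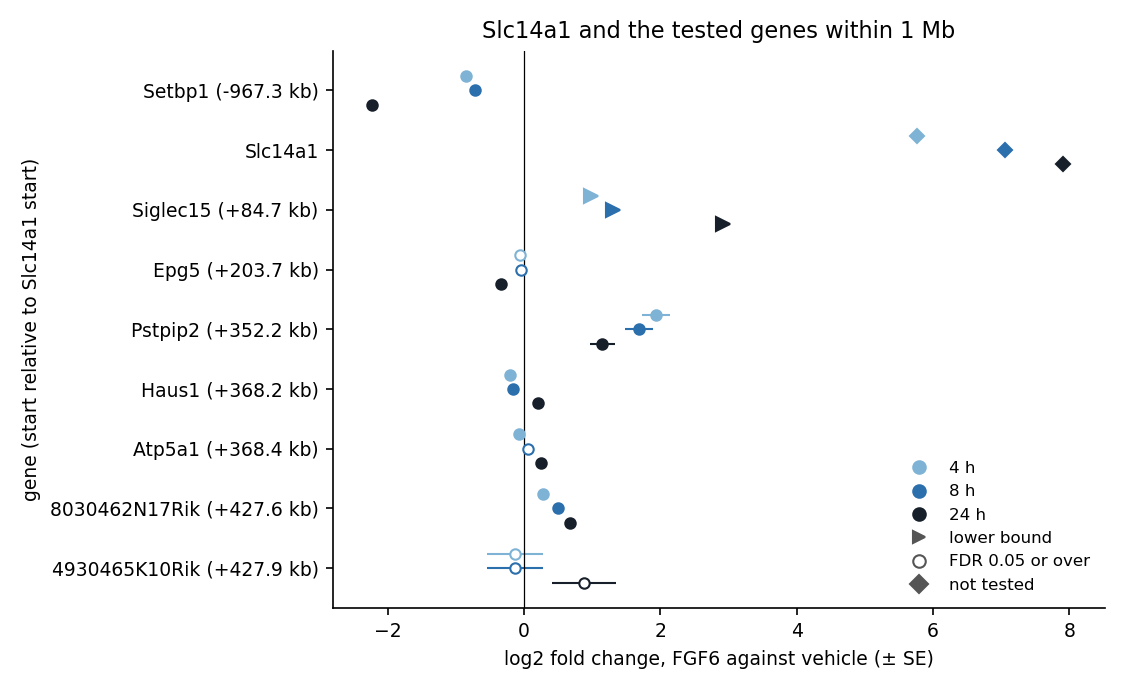
Log2 fold change of FGF6 against vehicle (± standard error) for Slc14a1 and the 8 tested genes whose start lies within 1 Mb, in order along the strand. Filled circles had an edgeR adjusted p under 0.05, open circles did not, the diamonds of Slc14a1 are not tested, and the triangles of Siglec15, which had 0 counts in vehicle, are lower bounds.

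To find genes with a similar pattern, the Pearson correlation of log2 CPM with that of Slc14a1 was taken across the 18 libraries for the 15070 other genes. These libraries fall into treatment groups that every gene shares, so high values are common and are a description only. The correlation was over 0.9 for 995 genes, over 0.95 for 394, and over 0.98 for 78, and under -0.9 for 921. The median was -0.08.

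The 10 genes most like Slc14a1 had correlations between 0.992 and 0.997. They were Pabpc1, the poly(A)-binding protein, Mmp13, a collagenase, Rasa1, which switches off Ras, Eif3l, a translation initiation factor subunit, Hipk1, a kinase, Cacybp, a partner of ubiquitin ligase complexes, Mfap3l, Tpm3, a tropomyosin, Rgs17, which limits G protein signals, and Gprc5a, an orphan receptor. The mean of each was higher in all FGF6 groups than in any vehicle group, and highest at 24 h. Each had a far smaller change than Slc14a1, with log2 fold changes at 24 h between 0.52 for Eif3l and 3.65 for Rgs17.

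Pabpc1, the closest, had 757.3 ± 18.7 CPM with vehicle and 1259 ± 37.2 CPM with FGF6 at 4 h (SD, n = 3). At 24 h it had 771.6 ± 8.95 and 1662 ± 38.5 CPM. Mmp13, the next, had 1.22 ± 0.197 and 6.68 ± 0.524 CPM at 4 h, then 1.06 ± 0.0787 and 12.2 ± 0.695 CPM at 24 h. Mmp13 thus began at about the level of Slc14a1 and ended far below it. At the other end were Tgfbr3, a TGF-beta co-receptor, at -0.995, Tmem119 at -0.994, and Lima1, an actin-binding protein, at -0.994.

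**Figure D5:**
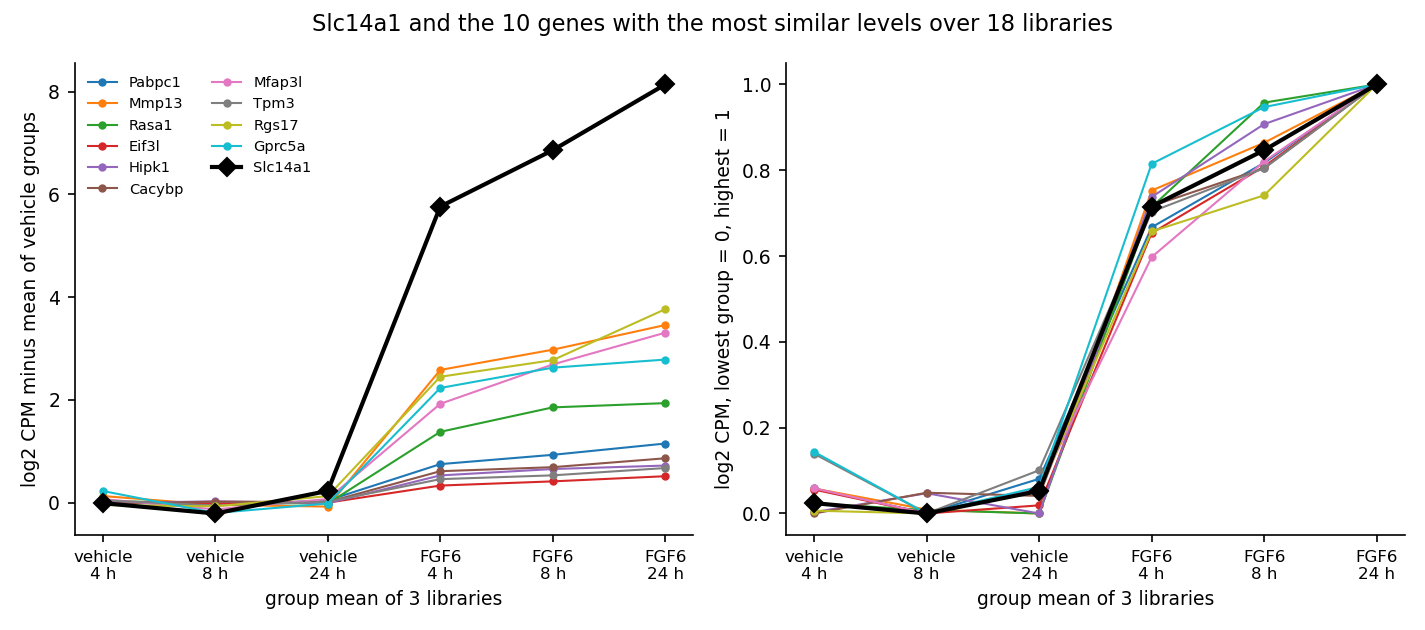
Group means of log2 CPM for Slc14a1 (black) and the 10 genes with the highest Pearson correlation over 18 libraries. On the left each gene is drawn relative to the mean of its vehicle groups, where Slc14a1 stands apart by size; on the right each is scaled from its lowest to its highest group, where the 11 curves run close together.

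The names depended on the measure of likeness. With Spearman's rho 1 of the 10 was kept, with library sizes alone 6, and with the 9 FGF6 libraries only none, where Gmnn, Tacc3, Top2a, Ect2, Mad2l1, and Nusap1, genes of the cell cycle, were among the 10. By the distance between the fold changes at the 3 times, again none was shared. Several of the genes nearest by this distance had 0 counts in vehicle at one or more times and so no firm fold change, and no order is given for them. The correlations of the first 10 after removal of the group means lay between -0.15 and 0.51.

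Markers of other cell types, some of which also make UT-B, moved with treatment in part. The endothelial list summed to between 0.377 and 1.67 CPM in vehicle libraries and between 1.96 and 5.65 CPM with FGF6. Of its 5 genes, 2 passed the filter. Cdh5, the endothelial cadherin, was higher at every time without overlap, with 3.59 against 0.0582 CPM at 24 h. Its vehicle libraries had at most 5, 3, and 3 counts at 4, 8, and 24 h, so it passed the filter only through FGF6 libraries. Its fitted log2 fold changes of 2.75, 3.77, and 5.84 are therefore uncertain in size. At 24 h its level was at least 33.5-fold higher, taken against 3 counts per library. Kdr, a VEGF receptor, was higher at 4 h (0.82) and 8 h (2.11), Tek was at 0 with FGF6 at 24 h and at 0.177 CPM with vehicle, and Pecam1 had at most 7 counts in any library. The astrocyte list went from between 203.2 and 418.6 CPM to between 189.5 and 968.1 CPM, nearly all of it Gja1, which was higher at 8 h (0.84) and 24 h (1.22). Aldh1l1 was lower at every time (-0.72, -1.40, and -0.80), Gfap had at most 13 counts and at 24 h 0.0847 CPM with FGF6 against 0.287 CPM with vehicle, and Aqp4 was at 0.

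The chondrocyte list summed to between 34.1 and 49.1 CPM with vehicle and between 200.4 and 273.2 CPM with FGF6, of which Sox9 was the largest part, with log2 fold changes of 2.77, 3.09, and 2.60. Col2a1 was higher at 4 h (0.99) and 8 h (1.92), Comp was lower at 8 h (-1.25) and 24 h (-3.83), Matn3 was lower at 4 h (-1.97) and 24 h (-1.07), and Acan, the main proteoglycan of cartilage, had at most 4 counts. The macrophage list lay between 6.39 and 15.2 CPM with vehicle and between 3.32 and 18.4 CPM with FGF6. Cd68 was higher at 4 h (0.58) and 8 h (0.26) and lower at 24 h (-0.85). Csf1r was lower at every time (-1.38, -1.81, and -1.77), and Ptprc and Adgre1 had at most 2 counts. The brown adipocyte list lay between 93.2 and 174.0 CPM with vehicle and between 63.9 and 97.0 CPM with FGF6, mostly Fabp4. Its members went both ways at 24 h. Fabp4 was lower (-1.26), and Adipoq and Plin1 were at 0 with FGF6 against 0.612 and 0.864 CPM with vehicle. Plin1 was also lower at 4 h (-3.77) and 8 h (-4.56). Ucp1 was at 0 counts in all vehicle libraries and with FGF6 at 4 and 8 h. With FGF6 at 24 h it reached up to 25 counts (a mean of 0.739 CPM). The part of these lists in the rise of Slc14a1 was not tested.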

How the data were processed

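RNA was sequenced from 18 libraries of brown preadipocytes, 3 in each of 6 groups, which were taken from the sample labels. The dose came from the description of the supplementary data. The authors aligned the reads to GRCm38 with STAR, counted reads per GENCODE gene with featureCounts of the Subread package, and deposited these counts without normalization. Tool versions, annotation release, and strand setting are not given in the sources used here. The study's own test was limma with voom.

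Genes were kept by edgeR's filterByExpr, which left 15071. TMM factors and a quasi-likelihood model of 6 group means over all libraries came from edgeR 4.0.16 (R 4.3.3), with Benjamini-Hochberg adjustment over all genes and a threshold of 0.05. Standard errors are those implied by the F statistic. Correlations used log2 CPM with a prior count of 2. GENCODE M21 matched 98.34% of the identifiers. Between 22 and 48 counts lie behind each vehicle value of Slc14a1, which limits its precision.

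The gene, the lists, and the tests were chosen with earlier results of these data known. Named genes are Slc14a1, the genes of the urea and osmolyte list that passed a test or define a role, its neighbours within 1 Mb, the 10 genes most like it and the 3 least like it, and the genes next to it by rank. The solute carrier list, the difference between the effects at 24 and 4 h, Slc1a7, Slc16a11, and Slc22a23, and the genes highest among those of similar vehicle level were added after values had been seen.

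Alternatives were limma 3.58.1 with voom, DESeq2 1.42.0, library sizes alone, no filter, a minimum of 10 counts per library, only the libraries compared, a replicate block, an adjusted p under 0.25 as in the study, an added 2-fold limit, and leaving out each library. The scripts were tested on simulated data.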

Additional observations from a re-analysis of the deposited data

Results flagged for a closer look

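For 7 genes near Slc14a1 in function or position, the effects of FGF6 at 4 h and at 24 h differed and were of opposite sign. The difference was called by edgeR's test between the effects, with adjustment over all genes. That test does not cover the sign, which rests on the separate calls at 4 h and 24 h. The differences below are the log2 fold change at 24 h minus that at 4 h, and each was kept in every alternative fit and in every fit that left out 1 library.

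The arginine transporter gene Slc7a2 differed by -3.09 (edgeR adjusted p = 2.17e-16), from 2.05 to -1.04. The chaperone gene Hspa4l differed by 1.97 (edgeR adjusted p = 2.49e-17), from -0.20 to 1.77. For Slc5a3, the myo-inositol transporter, the difference was 0.99 (edgeR adjusted p = 8.6e-13), from -0.17 to 0.83. For Nfat5 it was -0.47 (edgeR adjusted p = 1.72e-06), from 0.20 to -0.27.

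The lyase gene Asl differed by 0.60 (edgeR adjusted p = 8.35e-08), from -0.15 to 0.46. Of the neighbours on the chromosome, Haus1 differed by 0.40 (edgeR adjusted p = 0.00107), from -0.20 to 0.20, and Atp5a1 by 0.32 (edgeR adjusted p = 3.59e-07), from -0.08 to 0.24. For these last 3 genes the change of sign rests on a weak call at 4 h, lost in alternative fits and without single libraries. The call of Nfat5 at 4 h was also lost with library sizes alone (0.10, edgeR adjusted p = 0.0795). That of Slc5a3 at 4 h was lost without the first FGF6 library (-0.09, edgeR adjusted p = 0.0820).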

How the results depend on the processing

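The log2 fold change of Slc14a1 with FGF6 lay between 5.67 and 5.81 at 4 h, 6.996 and 7.10 at 8 h, and 7.90 and 7.94 at 24 h over the 7 alternative fits. Leaving out 1 library gave 5.66 to 5.89, 6.94 to 7.18, and 7.78 to 8.23, the last without the first vehicle library at 24 h. In vehicle the leave-one-out ranges were -0.31 to -0.07 from 4 to 8 h, 0.15 to 0.60 from 8 to 24 h, and -0.0522 to 0.39 from 4 to 24 h, the lowest value being of reversed direction. At an adjusted p under 0.25 the change of 0.43 from 8 to 24 h was past the threshold (edgeR adjusted p = 0.115). Library sizes alone moved the median of all genes at 4 h by -0.10.

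Same-numbered libraries share only a number: the correlations of FGF6 and vehicle residuals at one time lay between -0.03 and 0.05 over 9 pairs. With a replicate block the log2 fold changes of Slc14a1 were 5.77, 7.06, and 7.91, and no call of a named gene changed.

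With an added 2-fold limit, the urea and osmolyte list had 3, 4, and 5 higher genes at 4, 8, and 24 h, 2 lower at 4 h and 5 lower at 24 h, and the neighbours 2 higher at 24 h and 0, 0, and 1 lower. With at least 10 counts in every library the list had 2 lower at 8 h. The neighbours lower at 8 h numbered 1 with DESeq2, no filter, at least 10 counts, and only the libraries compared, and those at 4 h 1 with only the libraries compared. Leaving out 1 library gave 1 to 3 neighbours lower at 4 h and 1 to 2 at 8 h. Of 78 calls of named genes, 74 were kept with DESeq2, 76 with library sizes alone, 75 without the filter, 64 of 67 with at least 10 counts, and 71 of 76 with only the libraries compared, 68 were kept whichever library was left out, and 0 reversed. Of the genes most like Slc14a1, 0, 0, 1, and 6 of 10 were kept under the 4 other measures. The causes were not tested.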
